A study of Mus musculus with 8 samples.

Results

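The 4 mouse Hox gene clusters were examined for the placement of epitope-tagged histone H3. They were taken as fixed windows of the mouse genome build mm9, HoxA at chr6:52100001-52220000, HoxB at chr11:96050001-96230000, HoxC at chr15:102750001-102870000 and HoxD at chr2:74500001-74610000. The windows were set by position and not by signal, though with earlier results of these data known. The windows held 53 bins of 10 kb (12, 18, 12 and 11 in this order) of the 253926 rows of the deposited table, and were set beside 392 bins within 500 kb on each side. They span 38 Hox genes. RefSeq's genes were to hand only in a different build, GRCm38.p6, from which no position was taken, so exons, introns and UTRs are not placed on the bins.

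The study followed HA-tagged H3 by ChIP-seq (sequencing of immunoprecipitated chromatin) in C3H10T1/2 cells, mesenchymal progenitors from C3H mouse embryos. There were 4 lines, each stably expressing 1 FLAG-HA-tagged histone, at passages 10 to 15: H3.1WT (wild type H3.1), H3.1K36M, H3.3WT (wild type H3.3) and H3.3K36M. K36M replaces lysine by methionine at a site of the histone tail that is methylated in transcribed chromatin. The labels name no loss of the cells' own H3 genes in any line, and do not say whether a line is 1 clone. Each line gave 1 HA library and 1 library of input DNA, and the input libraries were not used here. The titles of both H3.3 HA samples open with H3.1, and these samples were assigned by genotype. The files hold no transcript level, so the cell type was not checked against markers.

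Hox genes encode homeodomain transcription factors that give cells their position along the body axis and in the limbs. Within a cluster the genes stand in the order of their paralogue groups, and in the embryo genes near the group 1 end are used earlier and further forward than those near the group 13 end. Trithorax and Polycomb proteins keep this pattern, with methylation of H3 lysine 4 on active genes and of H3 lysine 27 on silent ones. H3.1 is built into chromatin mainly at DNA replication, and H3.3 also outside it, above all at active genes and regulatory elements.

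By the gene order of RefSeq (GRCm38.p6), Hoxa13 lies at the high-coordinate end of HoxA, and Hoxb13, Hoxc13 and Hoxd13 lie at the low-coordinate ends of HoxB, HoxC and HoxD. From here on each cluster is read from its group 13 end towards the opposite end, which holds Hoxa2, Hoxb1, Hoxc4 or Hoxd1. Bins said to lie at, near or beyond one of these genes are counted from that end of the window. The gene itself is not placed on them. The clusters also carry microRNA genes, 6 in this table, and 2 seed families are spread over them. They are shown because some paralogous clusters that share these families differed in their H3.3 signal, while others stood close. A link between the microRNA genes and that signal was not tested. Sequences are RefSeq's mature forms in GRCm38.p6, 5′ to 3′, with the seed (bases 2 to 8) in capitals.
mmu-miR-196b-5p (HoxA): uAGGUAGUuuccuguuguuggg
mmu-miR-196a-5p (HoxB and HoxC): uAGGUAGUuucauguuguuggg
mmu-miR-10a-5p (HoxB): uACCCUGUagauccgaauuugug
mmu-miR-10b-5p (HoxD): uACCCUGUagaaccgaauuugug

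Promoter sequences were found in RefSeq's table for 22 of the 38 Hox genes, as 24 promoters. Of these 10 were of HoxA, 10 of HoxD, 3 of HoxB and 1 of HoxC, so HoxB and HoxC are hardly covered. Over the 250 bases before the start the 24 promoters held a median of 12.5 CG dinucleotides, against 6 over the 32851 promoters of the table. At least 10 were present in 15 of the 24 (62.5%) and in 37.8% of all promoters. The promoters of the genes at the ends of HoxA are shown, since the H3.3 signal differed most between the ends of that cluster. They are the last 100 bases before the start, 5′ to 3′ on the minus strand of chromosome 6, GRCm38.p6, with CG in capitals.
Hoxa13: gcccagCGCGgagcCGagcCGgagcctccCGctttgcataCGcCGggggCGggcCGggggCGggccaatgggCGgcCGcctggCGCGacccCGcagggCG
Hoxa2: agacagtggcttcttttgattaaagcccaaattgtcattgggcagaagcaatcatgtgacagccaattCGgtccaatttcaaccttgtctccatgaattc
Hoxa13, a regulator of digit and genital development, had 35 CG in its 250 bases and Hoxa2, which patterns the hindbrain and the second branchial arch, had 6. Among the other HoxA promoters the count ran from 3 at Hoxa9 to 28 at Hoxa5, so it did not follow the order of the genes. No promoter was placed on a bin.

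Signal is given as RPM, the reads of a bin scaled to the size of the library. A typical bin held 116 to 151 reads, by library, and the 53 Hox bins held 45 to 204 in H3.1WT, 53 to 230 in H3.1K36M, 101 to 501 in H3.3WT and 93 to 457 in H3.3K36M. Ratios are given with exact 95% intervals, which cover counting error only. Every line has a single library, so differences between lines lack a replicate check, no p-value is given, and spreads over bins are not spreads over replicates. Background reads and tagged histone cannot be told apart here.

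HoxA carried the most H3.3 and the least H3.1 of the clusters, and HoxC the most H3.1. In H3.3WT the mean signal was 6.57 RPM (SD 2.86 over 12 bins) in HoxA, 6.16 RPM (SD 1.07, 12 bins) in HoxC, 4.14 RPM (SD 0.953, 18 bins) in HoxB and 2.90 RPM (SD 0.425, 11 bins) in HoxD. HoxA and HoxC stood close, at a ratio of 1.07 (1.02 to 1.12), and their bins overlapped, whereas every HoxC bin lay above every HoxD bin. In H3.3K36M the means were 6.49 RPM in HoxA, 6.46 in HoxB, 5.73 in HoxC and 3.65 in HoxD. HoxB thus stood level with HoxA in this library, at a ratio of 1.005 (0.959 to 1.05). In H3.1WT the order was HoxC at 4.48 RPM, HoxB at 3.78, HoxD at 2.97 and HoxA at 2.53, and H3.1K36M had the same order at 4.26, 3.98, 2.97 and 2.24 RPM. Each step of the H3.1 order exceeded counting error, the smallest being HoxC over HoxB in H3.1K36M at 1.07 (1.01 to 1.13), but single bins of neighbouring clusters overlapped.

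**Figure D1:**
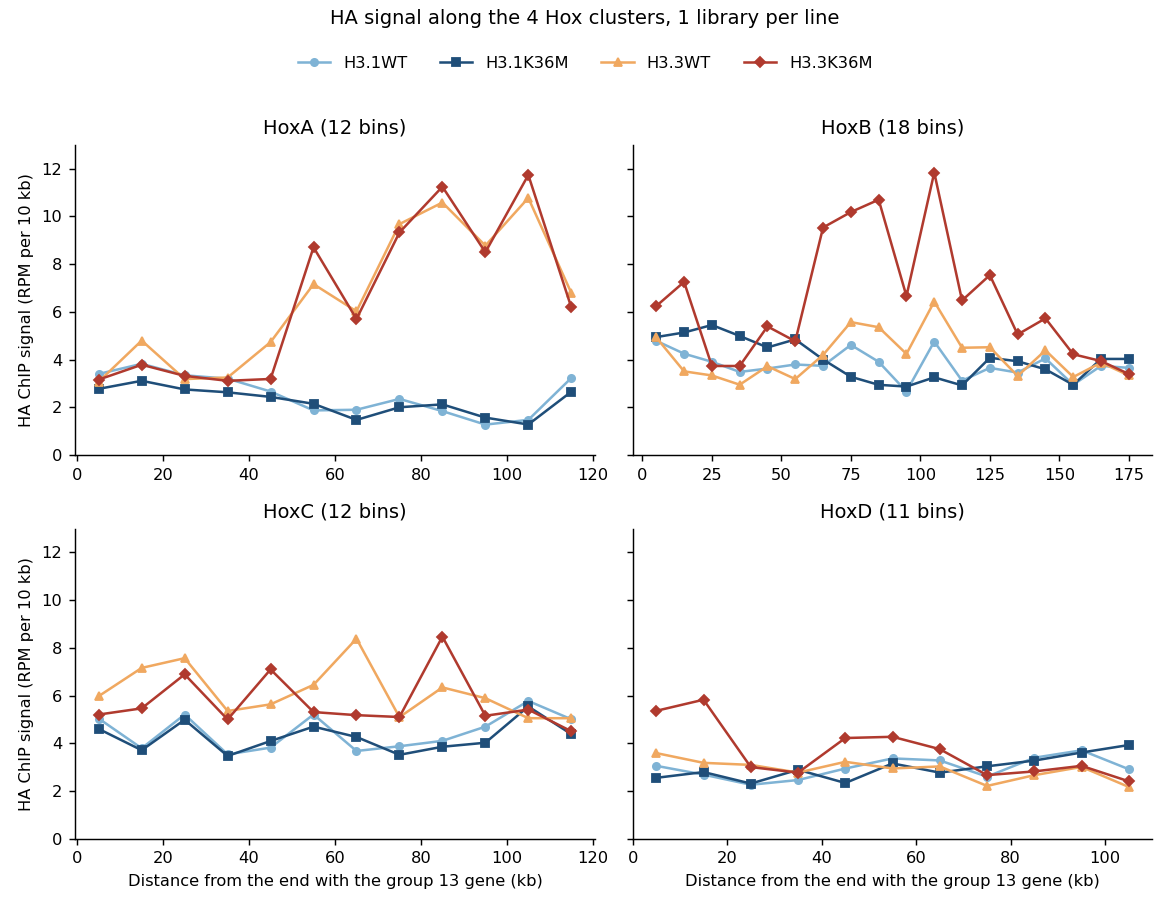
HA signal in RPM per 10 kb bin (vertical axis) along each Hox cluster, with the distance in kb from the end that holds the group 13 gene on the horizontal axis; each point is 1 bin of 1 library. In HoxA both H3.3 lines climb to over 10 RPM away from the group 13 end while H3.1 falls below 2 RPM, and in the middle of HoxB the H3.3K36M line stands above H3.3WT.

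Against the median bin of its library, H3.3 was most often high in HoxA and HoxC in H3.3WT, and in HoxA and HoxB in H3.3K36M. At least 2-fold above the median of 2.77 RPM in H3.3WT were 7 of 12 bins in HoxA, 7 of 12 in HoxC, 1 of 18 in HoxB and 0 of 11 in HoxD, beside 22.3% of all bins. In H3.3K36M, with a median of 3.004 RPM, the counts were 6 in HoxA, 9 in HoxB, 3 in HoxC and 0 in HoxD, beside 14.9% of all bins. No Hox bin lay at least 2-fold below the median in either H3.3 library, where 9.63% and 5.62% of all bins did. H3.1 was at least 2-fold below its median in 2 HoxA bins in H3.1WT and 3 in H3.1K36M, beside 3.61% and 3.56% of all bins, and in no bin of the other clusters. No Hox bin was 2-fold above its median in H3.1, beside 1.68% of all bins in H3.1WT and 1.44% in H3.1K36M.

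The clusters stood differently in their surroundings. HoxA was richer in H3.3 than its flanks, with 1.60 times (1.54 to 1.65) the signal of its flanks in H3.3WT and 1.82 times (1.75 to 1.897) in H3.3K36M. The H3.3WT signal of HoxC was 0.562 times (0.543 to 0.582) that of its flanks, which averaged 10.96 RPM, and its H3.3K36M signal 0.667 times (0.641 to 0.694). The low region was wider than HoxC itself. The 5 nearest bins beyond Hoxc13 held 5.38 to 6.60 RPM in H3.3WT and those beyond Hoxc4 4.28 to 5.55 RPM, beside the cluster mean of 6.16. In H3.3K36M these bins held 3.70 to 5.13 and 3.83 to 5.02 RPM, all under the cluster mean of 5.73. HoxB was at 0.612 times (0.591 to 0.634) in H3.3WT and at 0.901 times (0.872 to 0.930) in H3.3K36M. In HoxD the ratio was near 1 and its direction depended on the flank chosen: 0.938 (0.889 to 0.990) in H3.3WT, but 1.12 against the low-coordinate flank alone, and 1.08 (1.03 to 1.14) in H3.3K36M, but 0.981 against flanks of 250 kb.

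H3.1 was lower inside all 4 clusters than around them. The ratio of cluster to flanks was lowest in HoxC among the H3.1WT values, at 0.725 (0.692 to 0.760), followed by HoxA at 0.757 (0.711 to 0.806), HoxB at 0.837 (0.802 to 0.874) and HoxD at 0.869 (0.818 to 0.923). In H3.1K36M the ratios were 0.684 in HoxC, 0.710 in HoxA, 0.790 in HoxB and 0.852 in HoxD. By single bins, 4 HoxA bins in H3.3WT and 5 in H3.3K36M were at least 2-fold above the mean of their flanks, beside 4.85% and 2.30% of the 392 flank bins, and no bin of another cluster was. At least 2-fold below were 6 HoxB and 4 HoxC bins in H3.3WT, beside 5.36% of flank bins, and 1 HoxB bin in H3.3K36M, beside 4.34%. With flanks of 250 kb these numbers were 1 in H3.3WT and 0 in H3.3K36M, so the count of low bins depended on the flank taken. For H3.1, 2 HoxA bins in each library were at least 2-fold below, beside 1.28% of flank bins in H3.1WT and 1.02% in H3.1K36M.

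**Figure D2:**
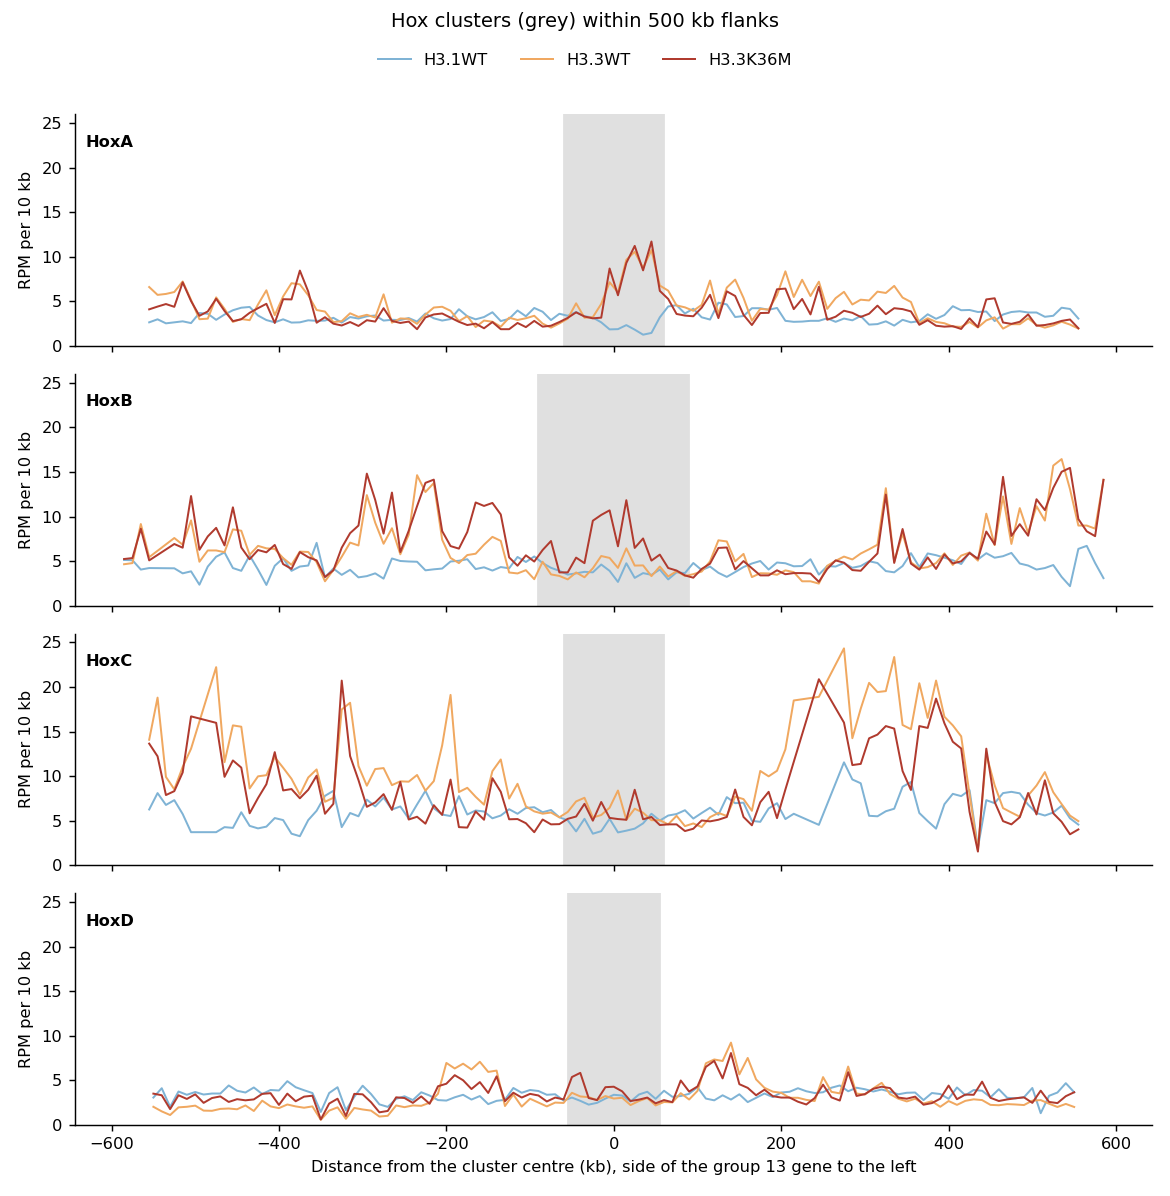
RPM per 10 kb bin (vertical axis) against the distance in kb from the centre of each cluster, with the side of the group 13 gene to the left and the cluster shaded grey; lines join the bins of 1 library and pass over bins left out. HoxA stands out above its flanks in H3.3WT and H3.3K36M, HoxC and its nearest bins sit between stretches of high H3.3, and HoxD stays close to its flanks.

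HoxA was divided into a stretch near Hoxa13 with similar signal of both variants and a remainder rich in H3.3 and poor in H3.1. From the Hoxa13 end to the Hoxa2 end, H3.3WT measured 3.07, 4.79, 3.18, 3.25, 4.73, 7.16, 6.02, 9.68, 10.6, 8.77, 10.8 and 6.79 RPM. H3.3K36M measured 3.16, 3.78, 3.32, 3.11, 3.19, 8.70, 5.70, 9.32, 11.2, 8.50, 11.7 and 6.19 RPM over the same bins. H3.1WT went the other way, with 3.40, 3.82, 3.34, 3.20, 2.66, 1.87, 1.90, 2.35, 1.84, 1.27, 1.47 and 3.23 RPM. The H3.3 signal was lower over the first 5 bins than from the sixth on. Even the lowest HoxA bins, at 3.07 RPM in H3.3WT and 3.11 in H3.3K36M, lay above the library medians of 2.77 and 3.004. The H3.1WT signal was low where H3.3 was high, up to the last bin, where it was back at 3.23 RPM. H3.1K36M followed H3.1WT, from 2.63 to 3.11 RPM in the first 4 bins and down to 1.28 RPM in the bin before the last.

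With each cluster divided into 3 consecutive stretches, the Hoxa2 end of HoxA exceeded the Hoxa13 end 2.58-fold (2.36 to 2.83) in H3.3WT and 2.82-fold (2.55 to 3.12) in H3.3K36M, and the bins of these stretches did not overlap in either library. In H3.1 the Hoxa13 end was the higher, 1.76-fold (1.52 to 2.05) in H3.1WT and 1.48-fold (1.28 to 1.71) in H3.1K36M. The middle stretch lay between, at 6.90 RPM (H3.3WT) and 2.19 RPM (H3.1WT). H3.3 was lower just outside the window: the first bin beyond the Hoxa2 end held 6.21 RPM (H3.3WT) and 5.28 RPM (H3.3K36M), and the next 4 held at most 4.62 and 4.30 RPM. The sixth was back at 7.35 RPM in H3.3WT and 5.75 in H3.3K36M, and the highest flank bins held 8.38 and 8.47 RPM, under the highest HoxA bins of 10.8 and 11.7 RPM. Beyond Hoxa13, the 5 nearest bins held 2.06 to 3.40 RPM in H3.3WT.

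The bin with the highest ratio of variants in both states was chr6:52110001-52120000, which is next to last towards Hoxa2. In WT lines H3.3 stood at 10.8 RPM and H3.1 at 1.47 RPM, a ratio of 7.32 (5.49 to 9.94). In K36M lines they stood at 11.7 and 1.28 RPM, a ratio of 9.19 (6.90 to 12.5). Among all bins, 1.47 RPM stood at percentile 2.21 of H3.1WT and 10.8 RPM at percentile 96.9 of H3.3WT. The neighbouring bin chr6:52120001-52130000 had the lowest H3.1WT signal of the cluster, 1.27 RPM from 45 reads (interval 0.929 to 1.70 RPM), at percentile 1.47. Across the 12 bins Pearson's r of log2 RPM between H3.1WT and H3.3WT was -0.77 (Spearman's rho -0.79), and between H3.1K36M and H3.3K36M it was -0.70 (rho -0.67). Over all bins of the genome r was 0.507 and 0.522 for these pairs, and in the 100 flank bins of HoxA it was -0.41 and -0.43. Neighbouring bins are not independent, and mappability and base composition are shared by the libraries.

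**Figure D3:**
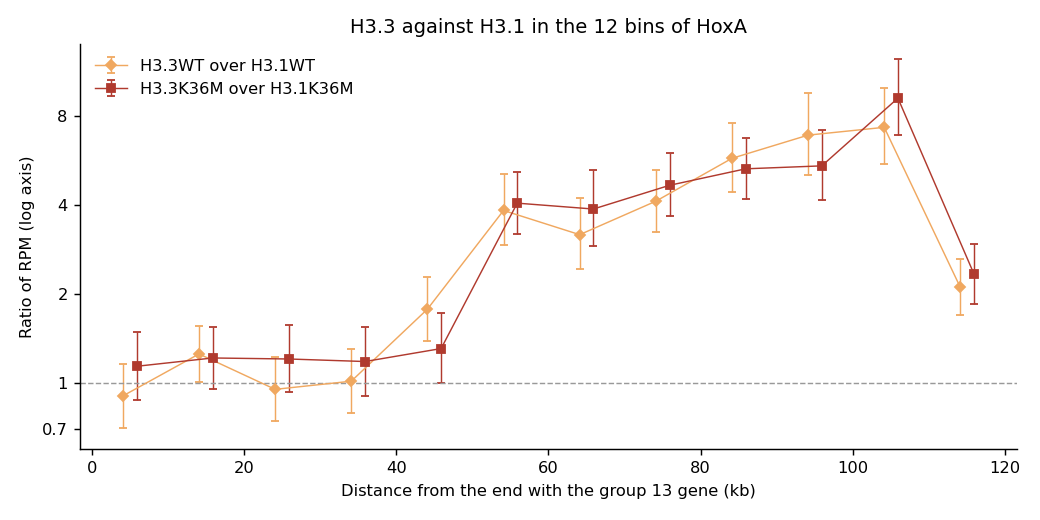
Ratio of H3.3 to H3.1 signal (log axis) in the 12 bins of HoxA, with the distance in kb from the Hoxa13 end on the horizontal axis; points are single bins and bars exact 95% counting intervals. Both the WT and the K36M ratio stay near 1 over the first 40 kb and reach 7.32 and 9.19 in the bin before the last.

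The comparison of H3.3WT with H3.1WT asks where the replication-independent variant is enriched. Over whole clusters H3.3WT was 2.60-fold (2.43 to 2.78) above H3.1WT in HoxA, 1.38-fold (1.30 to 1.46) in HoxC and 1.10-fold (1.04 to 1.15) in HoxB, and 0.976 times H3.1WT (0.903 to 1.06) in HoxD. The median log2 ratio of all bins was -0.43, and the clusters exceeded it by 1.81 in HoxA, 0.89 in HoxC, 0.57 in HoxB and 0.40 in HoxD. Their flanks had ratios of H3.3WT over H3.1WT of 1.23 for HoxA, 1.77 for HoxC, 1.499 for HoxB and 0.904 for HoxD. HoxA thus exceeded its flanks, HoxC and HoxB lay below theirs, and HoxD stood close to its own. At least 2-fold higher in H3.3WT were 7 HoxA bins and 1 HoxC bin, 8 of the 53, beside 10.3% of all bins and 84 of the 392 flank bins. None was at least 2-fold lower, beside 16.8% of all bins. At 1.5-fold 12 Hox bins were higher, beside 19.6% of all bins, and 0 lower, beside 43.4%. Within HoxA the ratio was 1.04 (0.923 to 1.17) in the stretch at Hoxa13, 3.14 (2.78 to 3.57) in the middle and 4.73 (4.16 to 5.39) at Hoxa2. In HoxD the order was reversed, from 1.21 (1.06 to 1.38) at Hoxd13 through 0.936 (0.823 to 1.07) to 0.783 (0.675 to 0.909) at Hoxd1. The HoxC bin was chr15:102810001-102820000, with 8.38 RPM of H3.3WT against 3.68 of H3.1WT, a ratio of 2.28 (1.86 to 2.80).

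In K36M lines the summed H3.3 signal stood above that of H3.1 in all 4 clusters, though not in every stretch. H3.3K36M was 2.90-fold (2.70 to 3.104) above H3.1K36M in HoxA, 1.62-fold (1.55 to 1.70) in HoxB, 1.34-fold (1.27 to 1.42) in HoxC and 1.23-fold (1.14 to 1.32) in HoxD. The median log2 ratio of all bins was -0.30 here, and the clusters exceeded it by 1.84, 1.00, 0.73 and 0.60. The flanks stood at 1.13 for HoxA, 1.42 for HoxB, 1.38 for HoxC and 0.966 for HoxD, so HoxC did not exceed its flanks. At least 2-fold higher were 7 bins in HoxA, 6 in HoxB, 1 in HoxC and 2 in HoxD, beside 8.18% of all bins and 60 of the 392 flank bins. None was at least 2-fold lower, beside 3.29% of all bins. At 1.5-fold 20 Hox bins were higher, beside 14.9% of all bins, and 1, the HoxD bin at Hoxd1, was lower, beside 26.2%. The 6 HoxB bins adjoin each other and make up the middle stretch of that cluster, where the ratio was 2.88 (2.65 to 3.12), against 1.33 (1.22 to 1.45) in WT lines. The 2 HoxD bins are those at the Hoxd13 end, with ratios of 2.10 (1.65 to 2.68) and 2.08 (1.66 to 2.63). In HoxD 6 bins were higher in H3.3K36M and 5 lower, and the stretch at Hoxd1 had a ratio of 0.766 (0.662 to 0.886). The stretch of HoxB at Hoxb13 had 1.04 (0.961 to 1.13).

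**Figure D4:**
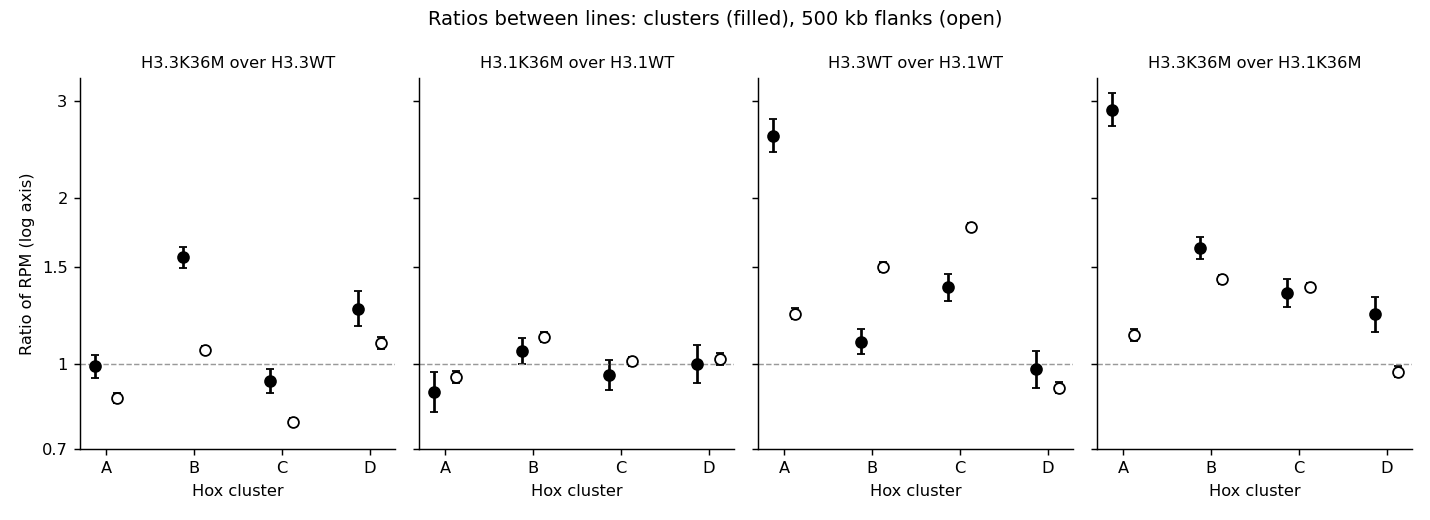
Ratio of RPM between lines (log axis) for HoxA to HoxD, filled for the cluster and open for its 500 kb flanks, in the 4 comparisons named above the panels; bars are exact 95% counting intervals. HoxA reaches 2.60 and 2.90 for H3.3 over H3.1, and HoxB has the highest ratio of H3.3K36M over H3.3WT, 1.56.

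HoxB had the highest ratio of K36M to WT in H3.3. H3.3K36M measured 6.46 RPM against 4.14 RPM in H3.3WT, a ratio of 1.56 (1.49 to 1.63), and was the higher in 18 of 18 bins, beside 58.4% of all bins. The flanks of HoxB as a whole had a ratio of 1.06 (1.04 to 1.08), but the bins next to the Hoxb13 end were also higher, as given below. HoxD had 3.65 against 2.90 RPM, a ratio of 1.26 (1.17 to 1.35), and 9 of 11 bins were higher in H3.3K36M; its flanks had 1.09 (1.06 to 1.12). In HoxA the lines differed by less than counting error over the whole cluster, at 0.989 (0.942 to 1.04), with flanks at 0.865 (0.846 to 0.884). This depended on scaling, since the HoxA ratio was 0.836 with the median of its chromosome subtracted. In HoxC the ratio was 0.930 (0.884 to 0.979) with flanks at 0.784 (0.773 to 0.796), and with the median of chromosome 15 subtracted the HoxC ratio turned to 1.07. In summed signal each cluster had a higher ratio than its own flanks, but for HoxD this did not hold by single bins. The median log2 ratio was 0.26 over HoxD bins and 0.28 over its flank bins, and 1 of 11 HoxD bins was past 1.5-fold against 20 of 100 flank bins. With the genome median of 0.10 subtracted, the log2 ratios were 0.54 in HoxB, 0.23 in HoxD, -0.12 in HoxA and -0.21 in HoxC.

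Single bins of at least 2-fold difference were few. They were 2 HoxB bins higher in H3.3K36M, beside 2.94% of all bins, and none lower, beside 1.81%. The first, chr11:96110001-96120000, held 3.74 RPM in H3.1WT, 4.00 in H3.1K36M, 4.19 in H3.3WT and 9.53 in H3.3K36M, an H3.3 ratio of 2.27 (1.91 to 2.72). The second, chr11:96060001-96070000 near Hoxb13, held 4.24, 5.13, 3.50 and 7.25 RPM, a ratio of 2.07 (1.70 to 2.53). By the 1.5-fold rule, which was added after the values were seen, 8 HoxB bins and 1 HoxD bin were higher, beside 14.5% of all bins, and 1 HoxC bin was lower, beside 8.63%. That HoxC bin was chr15:102810001-102820000, where H3.3WT had 8.38 RPM and H3.3K36M had 5.18, a ratio of 0.618 (0.518 to 0.734).

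Along HoxB the difference peaked in the middle. From the Hoxb13 end, H3.3WT measured 4.92, 3.50, 3.33, 2.95, 3.72 and 3.18 RPM in the first stretch, 4.19, 5.57, 5.35, 4.24, 6.43 and 4.49 RPM in the middle and 4.51, 3.31, 4.39, 3.27, 3.87 and 3.33 RPM at the Hoxb1 end. H3.3K36M measured 6.24, 7.25, 3.73, 3.73, 5.39 and 4.77 RPM, then 9.53, 10.2, 10.7, 6.66, 11.8 and 6.48 RPM, then 7.54, 5.05, 5.72, 4.22, 3.94 and 3.39 RPM. Every middle bin of H3.3K36M lay above every H3.3WT bin of the cluster. The ratio was 1.44 (1.32 to 1.57) at the Hoxb13 end, 1.83 (1.71 to 1.96) in the middle and 1.32 (1.21 to 1.43) at the Hoxb1 end, where the last 2 bins were both at 1.02. H3.3WT was itself higher in the middle, at 5.05 RPM, than at the ends, at 3.60 and 3.78 RPM, and r of log2 RPM between the H3.3 libraries over the 18 bins was 0.845 (rho 0.806). Beyond Hoxb13, 5 of the 5 nearest bins were higher in H3.3K36M, and beyond Hoxb1 1 of 5 was. Outward from Hoxb13 the bins held 4.95, 5.65, 4.48, 5.41 and 10.2 RPM in H3.3K36M, against 2.97, 3.98, 3.61, 3.72 and 7.27 in H3.3WT. The bins 145, 155 and 165 kb from the centre on this side held 11.5, 11.2 and 11.6 RPM against 7.72, 6.84 and 5.83. The higher H3.3K36M signal thus ran past the window on the Hoxb13 side. The flank on the Hoxb13 side had a ratio of 1.15 (1.13 to 1.18), and the other 0.972 (0.949 to 0.995). The higher signal beyond Hoxb13 was not particular to H3.3. H3.1K36M was above H3.1WT in 5 of the 5 nearest bins there, and at a ratio of 1.15 (1.12 to 1.19) over that flank.

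H3.1 in HoxB went the other way in the middle. From the Hoxb13 end H3.1K36M averaged 4.98, 3.21 and 3.76 RPM in the 3 stretches, and H3.1WT 3.97, 3.80 and 3.58 RPM. The ratio of H3.1K36M over H3.1WT was 1.25 (1.15 to 1.37) at the Hoxb13 end, 0.845 (0.765 to 0.933) in the middle and 1.05 (0.954 to 1.16) at the Hoxb1 end. Of the 6 middle bins 4 were lower in H3.1K36M, where 50.2% of all bins were, led by chr11:96150001-96160000 at 4.75 against 3.25 RPM, a ratio of 0.684 (0.542 to 0.863). This bin had the highest H3.3K36M signal of the cluster, 11.8 RPM. Over all HoxB, 6 of 18 bins (33.3%) were higher in H3.3K36M and lower in H3.1K36M than in WT, near the 29.0% of all bins. Across the 18 bins r between the log2 ratios of K36M over WT in H3.3 and in H3.1 was -0.40 (rho -0.32), where it was 0.0894 over the 98 flank bins and 0.0468 over the genome. A negative r was not particular to HoxB: it was -0.34 (rho -0.45) in HoxD and -0.34 (rho -0.36) over the 100 flank bins of HoxA. In HoxA itself r was 0.33 (rho 0.47), and in HoxC -0.19 (rho 0.049). The H3.3 and H3.1 ratios share no library, but neighbouring bins are not independent.

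**Figure D5:**
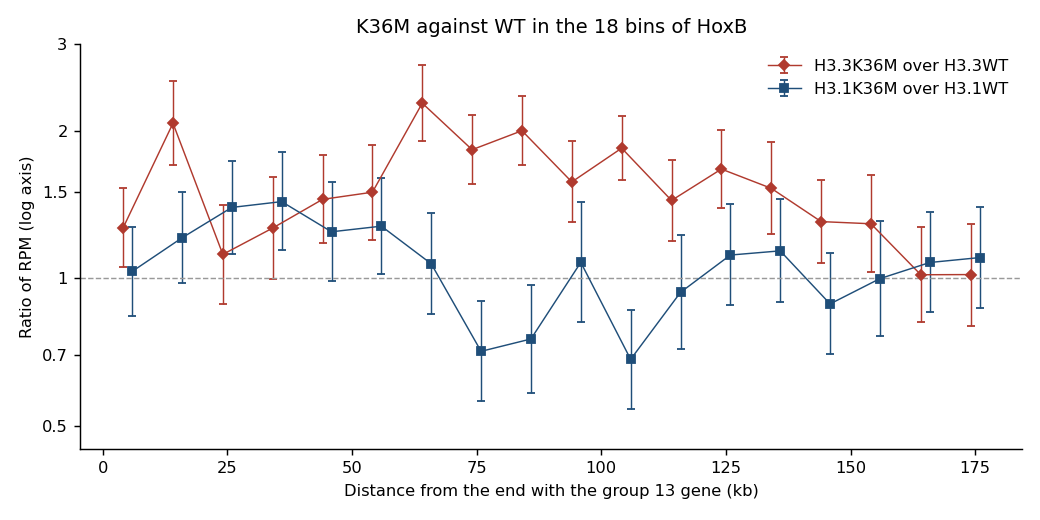
Ratio of K36M to WT signal (log axis) in the 18 bins of HoxB for H3.3 and for H3.1, with the distance in kb from the Hoxb13 end on the horizontal axis; points are single bins and bars exact 95% counting intervals. The H3.3 ratio is highest at 2.27 in the seventh bin, and the H3.1 ratio falls to 0.684 in the eleventh.

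Between H3.1K36M and H3.1WT no Hox bin differed 2-fold in either direction, beside 0.0122% of all bins higher and 0.064% lower, and none differed 1.5-fold, beside 0.74% and 1.02%. Over whole clusters the ratio was 0.887 (0.815 to 0.966) in HoxA, 1.05 (0.998 to 1.11) in HoxB, 0.952 (0.894 to 1.01) in HoxC and 1.000 (0.924 to 1.08) in HoxD. In HoxA the 4 bins at Hoxa13 were all lower in H3.1K36M, beside 50.2% of all bins, at 2.81 against 3.44 RPM, a ratio of 0.818 (0.719 to 0.931). The ratio in the stretch at Hoxa2 was 0.975 (0.827 to 1.15).

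HoxC and HoxD showed weaker trends along their order. HoxC was even: its 3 stretches averaged 6.51, 6.39 and 5.58 RPM in H3.3WT from Hoxc13 to Hoxc4, and 5.64, 5.67 and 5.89 RPM in H3.3K36M. The Hoxc13 end was 1.17-fold (1.07 to 1.27) above the Hoxc4 end in H3.3WT, and 0.958 times (0.872 to 1.05) that end in H3.3K36M. In HoxD the Hoxd13 end was the higher in H3.3, 1.21-fold (1.06 to 1.38) in H3.3WT and 1.54-fold (1.34 to 1.76) in H3.3K36M, and the lower in H3.1, at 0.784 times (0.676 to 0.909) in H3.1WT and 0.732 times (0.640 to 0.836) in H3.1K36M. The highest H3.3K36M bins of HoxD were the 2 at this end, chr2:74500001-74510000 at 5.36 RPM against 3.59 in H3.3WT and chr2:74510001-74520000 at 5.83 RPM against 3.18. The direction thus differed from HoxA, where the group 13 end was the lower in H3.3. Over the 4 clusters and 4 libraries the group 13 end was the lower in 8 of 16 cases.

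The authors' deposited list of H3.3K36M peaks, given without scores, placed 6 of its 8375 peaks in the clusters, and each cluster held at least 1. HoxA held 3, at chr6:52132801-52135000, chr6:52138801-52140400 and chr6:52162001-52163400, all in its H3.3-rich part, at 85.0, 79.6 and 56.6 kb from the Hoxa13 end of the window. The bin of the first held 11.2 RPM of H3.3K36M against 10.6 of H3.3WT. The others were chr11:96169201-96171000 in HoxB, chr15:102831801-102833400 in HoxC and chr2:74515601-74516800 in HoxD, which lies in the second bin from the Hoxd13 end. They were 1.2 to 2.2 kb long, beside a median of 2 kb over the list. Bins with such a peak were 3 of 12 in HoxA, 2 of 18 in HoxB, 1 of 12 in HoxC and 1 of 11 in HoxD, beside 4.25% of all bins and 41 of the 392 flank bins. HoxC was sparse in peaks beside its flanks, with 1.33% of its length covered against 20.4%, and HoxA was dense, with 4.33% against 0.1%. The bins highest in H3.3K36M did not all hold a peak. The HoxB peak lay across bins of 6.48 and 7.54 RPM, and the HoxB bin of 11.8 RPM held none. The highest HoxA bin, at 11.7 RPM, held none either. Peaks were called in the H3.3K36M line, so high signal there in peak bins is no separate result. The H3.1K36M list had none of its 73 peaks in a cluster, beside 0.0338% of all bins.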

How the data were processed

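HA ChIP-seq signal of 4 C3H10T1/2 lines was analysed, with 1 library per line. Bowtie 1.0.0 and build mm9 were used, per the submitters' processing notes. Not given in the sources used here are the read counting, duplicate removal, peak caller and its threshold and control. RPM per genomic bin was deposited by the authors, with 2 lists of peak positions on a 200 bp grid. The labels' protocol names a Cbx2 antibody and the sample descriptions an HA antibody, and the latter was followed. Dividing each RPM column by its lowest value over 0 gave whole reads for 100% of values (tolerance 0.01 read), and these reads were used for intervals. A count test was not run, since each group has 1 library.

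Bins of 10 kb on chromosomes 1 to 19 and X with a mean of at least 0.5 RPM were used, 245206 in all. Wider rows, 1 in the flanks of HoxB and 3 in those of HoxC, were left out. Cluster ratios are ratios of summed RPM and their 95% intervals are exact (Clopper-Pearson), from the recovered reads, which carry no molecular identifiers and so may repeat a molecule. The 2-fold rule, which sets a size only, was applied to log2 of RPM plus 0.1, which understates the change of low bins. Text names the clusters, their highest and lowest bins and ratios, and all peaks inside. Members and settings were chosen with earlier results of these data known. Simulated data served to test how ratios and intervals were computed. Software was scipy 1.17.1, pandas 2.3.3, numpy 2.4.6 and matplotlib 3.10.9 under Python 3.11.15.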

Additional observations from a re-analysis of the deposited data

Results flagged for a closer look

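In the middle stretch of HoxB, K36M and WT differed in opposite directions in the 2 histone variants. H3.3 had 1.83 times (1.71 to 1.96) the WT signal in its K36M line and H3.1 had 0.845 times (0.765 to 0.933), so both intervals lay clear of 1 on opposite sides. Of the 6 bins of this stretch, 6 were higher in H3.3K36M and 4 were lower in H3.1K36M, where 58.4% and 50.2% of all bins were. The stretch was flagged for this pattern, so its bins are no separate support. Over the whole of HoxB the pattern was near the background: 6 of 18 bins (33.3%) were higher in H3.3K36M and lower in H3.1K36M, beside 29.0% of all bins. The difference between the variants was not tested, since each line has 1 library, and a cause was not tested. Of the 4 clusters and their 12 stretches, this was the one where both intervals lay clear of 1 in opposite directions.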

How the results depend on the processing

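No paired analysis was possible because each group has 1 library. H3.3K36M over H3.3WT had 2 bins past 2-fold as reported, 1 with a pseudocount of 1 RPM, 1 with libraries scaled so that the median bin ratio was equal and 9 by the 1.5-fold rule added after seeing the data, which also gave 1 lower bin in place of 0. H3.3WT over H3.1WT had 8 higher bins, and 13 after that scaling. H3.3K36M over H3.1K36M had 16, and 10 with a pseudocount of 1 RPM, while the 1.5-fold rule gave 1 lower bin in place of 0. Bins 2-fold below the mean of their flanks numbered 10 in H3.3WT, but 1 with flanks of 250 kb and 0 against the median of bins. In H3.3K36M there was 1, and 0 with flanks of 250 kb, the high-coordinate flank alone, the median of bins or the outermost bins left out, and 3 with the low-coordinate flank alone. HoxD over its flanks reversed in H3.3WT, from 0.938 to 1.12 (low-coordinate flank) and 1.21 (median of bins), and in H3.3K36M, from 1.08 to 0.981 (flanks of 250 kb) and 0.967 (median of bins). HoxC, at 0.930 for H3.3K36M over H3.3WT, was 1.07 with the median of its chromosome subtracted. HoxB, at 1.56, was 1.45 after that scaling. Of the 6 peaks in the clusters, 1 was at least as long as the median of its list. Of the recomputed counts 103 stayed within 1.5 times the reported ones and 15 moved. Single values such as cluster ratios were less stable: 128 stayed, 59 moved beyond their interval and 5 reversed. At 45 reads the shallowest H3.1WT bin limits single-bin ratios in HoxA. The cause of these changes was not tested.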
